A study of Mus musculus with 2 samples.

Results

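The genes described here are the 7 inhibitors of cyclin-dependent kinases (CDKs) of the Cip/Kip and INK4 families and the 3 D-type cyclins, 10 of the 35129 gene symbols measured by RNA sequencing. They were chosen by symbol, with the values of Cdkn1c, Cdkn2c and Cdkn2b in these same libraries already known. The samples are primary hepatocytes of C57BL/6 mice, that is liver cells taken from the animal and cultured. The Ad-KLF14 cells were infected with an adenovirus that expresses the zinc finger transcription factor KLF14. The Ad-GFP cells were infected with a control adenovirus, labelled GFP and described as an empty vector, so both groups carry virus and uninfected cells were not analysed here. The promoter in the virus, its dose, the time after infection and the age of the mice are not given in the sources used here. Each group has 1 library, so the conditions could not be tested against each other, and the values describe these 2 libraries alone.

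The decision of a cell to start dividing runs through these genes. D-type cyclins bind CDK4 and CDK6, and the complexes phosphorylate the retinoblastoma protein and its relatives, which releases E2F factors to switch on genes of DNA replication. INK4 proteins (p16, p15, p18 and p19) bind CDK4 and CDK6 and keep the cyclin away, whereas Cip/Kip proteins (p21, p27 and p57) bind cyclin-CDK complexes, block CDK2 and can also help to assemble cyclin D with its kinase. Adult hepatocytes rest outside the cell cycle and can re-enter it after loss of liver tissue or in culture, where cyclin D1 is a well-known marker of that step.

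The level of Klf14 was 13164 FPKM with Ad-KLF14 and 0.298 FPKM with Ad-GFP, in the direction of the labels. FPKM counts the reads of a gene per kilobase of its length and per 1000000 reads. Read totals recovered from the values were 11151711 for Ad-KLF14 and 11311344 for Ad-GFP. The hepatocyte markers were present in both, with albumin, Alb, at 4172 FPKM with Ad-KLF14 and 5115 FPKM with Ad-GFP. Of the 9 hepatocyte markers in the table none was 2-fold apart. Markers of other cell types were mostly low, with summed levels for Ad-KLF14 and Ad-GFP of 9.42 and 14.1 FPKM for 8 endothelial genes, 2.52 and 3.55 FPKM for 9 stellate cell and fibroblast genes, and 1.95 and 1.20 FPKM for 6 lymphocyte genes, where Cd3e and Cd3d were listed at 0. The 9 macrophage genes summed to 209 FPKM with Ad-KLF14 and 141 FPKM with Ad-GFP. Of the 7 macrophage genes that averaged 1 FPKM or more, 5 were higher with Ad-KLF14 by any amount and 2 lower. Their median log2 ratio was 0.15. Within them Cd68 was at 160 FPKM with Ad-KLF14 and 71.1 FPKM with Ad-GFP, while Mpeg1 was 2.34-fold lower with Ad-KLF14 and Lyz2 and Csf1r had ratios of 1.0 and 0.992. The 6 cholangiocyte genes summed to 235 FPKM with Ad-KLF14 and 795 FPKM with Ad-GFP, most of it Spp1, while Krt7 was listed at 0 in both and Krt19 was at 0.196 FPKM with Ad-KLF14 and 1.74 FPKM with Ad-GFP. Whether these cells have a part in the values below was not tested, and in bulk RNA fewer cells of a type and less RNA per cell cannot be told apart.

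Of the 10 genes, 9 averaged 1 FPKM or more over the libraries and were compared on log2(FPKM + 1), a scale that understates differences of low genes. On it Cdkn1c and Cdkn2c were past 2-fold higher in Ad-KLF14 cells and Cdkn2b past 2-fold lower, 22.2% and 11.1% of the 9 genes. Of all 12419 genes with such a mean, 6.37% were past 2-fold higher and 8.99% past 2-fold lower. As the genes were chosen with these values known, nothing is read from the counts. The other 6 were under 2-fold, and Cdkn2a, with a mean of 0.911 FPKM, was left out. The median log2 ratio of the 9 was 0.47, against −0.03 over all 12419 genes. Next to the 2-fold limit, Cdkn2c lay outside it at a log2 ratio of 1.91 and Ccnd1 inside it at 0.85.

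**Figure D1:**
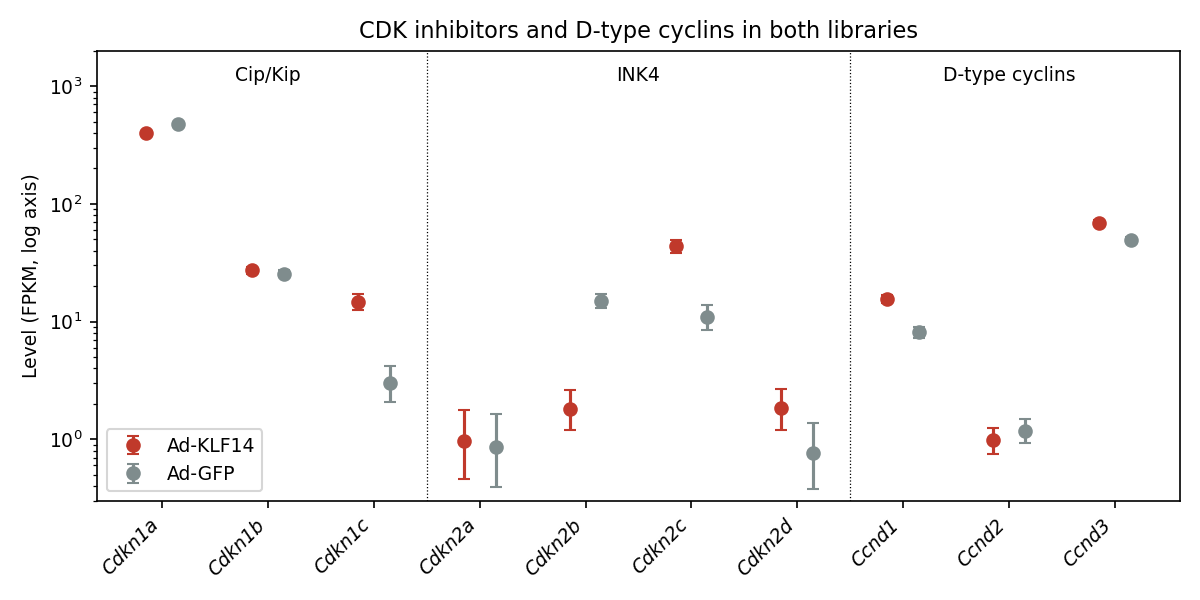
Level of each gene in FPKM on a log axis, Ad-KLF14 in red left of Ad-GFP in grey; points are 1 library each and bars are 95% Poisson intervals of the reads, which cover counting error only. Cdkn1a is highest in both libraries, and the intervals of the 2 libraries do not overlap for Cdkn1a, Cdkn1c, Cdkn2b, Cdkn2c, Ccnd1 and Ccnd3.

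Among the Cip/Kip genes, Cdkn1a encodes p21, which p53 switches on after DNA damage and other stress. It was the most abundant of the 10 genes, at 398 FPKM with Ad-KLF14 and 474 FPKM with Ad-GFP, from 8583 and 10380 reads. The ratio of the FPKM values was 0.839, with a 95% counting interval of 0.815 to 0.863. All such intervals cover counting error only and say nothing of differences between cultures. Cdkn1b encodes p27, which holds resting cells out of the cycle. It was at 27.3 FPKM with Ad-KLF14 and 25.6 FPKM with Ad-GFP, a ratio of 1.07 whose interval of 0.960 to 1.18 holds 1, and these reads could not show a difference.

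Cdkn1c encodes p57, an inhibitor expressed from the maternal chromosome only and best known from the embryo and placenta. It was at 14.8 FPKM with Ad-KLF14 and 3.0 FPKM with Ad-GFP, from at least 160 and 33 reads. The ratio was 4.92 (interval 3.36 to 7.39), the highest of the 10 genes, and 60 of the 12419 genes, Cdkn1c included, had a log2 ratio at least as high as its 1.98. Even so p57 transcripts were a small part of the family. Cdkn1c made up 3.36% of the summed Cip/Kip FPKM with Ad-KLF14 and 0.598% with Ad-GFP, and Cdkn1a made up 90.4% and 94.3%. The family sum was 440 FPKM with Ad-KLF14 and 503 FPKM with Ad-GFP, a ratio of 0.875 set mainly by Cdkn1a.

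The INK4 genes differed most in their make-up. Cdkn2b encodes p15, a CDK4 and CDK6 inhibitor that TGF-beta switches on in epithelial cells. It was at 1.80 FPKM with Ad-KLF14 and 15 FPKM with Ad-GFP, from 28 and 236 reads. That is 8.31-fold lower with Ad-KLF14 (interval 5.60 to 12.8), and 33 of the 12419 genes, Cdkn2b included, had a log2 ratio at least as low as its −2.51. Cdkn2c encodes p18, a close relative that E2F factors can switch on. It went the other way, at 43.6 FPKM with Ad-KLF14 and 10.9 FPKM with Ad-GFP, from at least 269 and 68 reads. The ratio was 4.01 (interval 3.06 to 5.32), and 74 genes, Cdkn2c included, had a log2 ratio at least as high.

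Cdkn2d, which encodes p19-INK4d, was low in both libraries, at 1.83 FPKM with Ad-KLF14 and 0.765 FPKM with Ad-GFP from 26 and 11 reads. Its FPKM ratio was 2.40 (interval 1.14 to 5.38), but with the pseudocount the log2 ratio was 0.68 and it did not count as 2-fold. Cdkn2a encodes both p16 and, from another first exon and reading frame, the p53 activator p19-ARF, which a single value per gene does not separate. It was near the lower end, at 0.965 FPKM with Ad-KLF14 and 0.856 FPKM with Ad-GFP from 10 and 9 reads. The ratio of 1.13 has an interval of 0.412 to 3.13, which holds 2-fold differences in both directions.

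Summed per length, the INK4 genes stood at 48.2 FPKM with Ad-KLF14 and 27.5 FPKM with Ad-GFP, a ratio of 1.76. Cdkn2c held 90.5% of that sum with Ad-KLF14 and 39.6% in the Ad-GFP library. Cdkn2b held 3.74% and 54.5%. The leading INK4 transcript was therefore Cdkn2c with Ad-KLF14 and Cdkn2b with Ad-GFP, where the counting intervals of both genes overlapped. The Cdkn2c interval rests on a lower limit of reads and may be too wide, so this overlap is uncertain. The quotient of Cdkn2c over Cdkn2b was 24.2 with Ad-KLF14 and 0.726 with Ad-GFP.

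**Figure D2:**
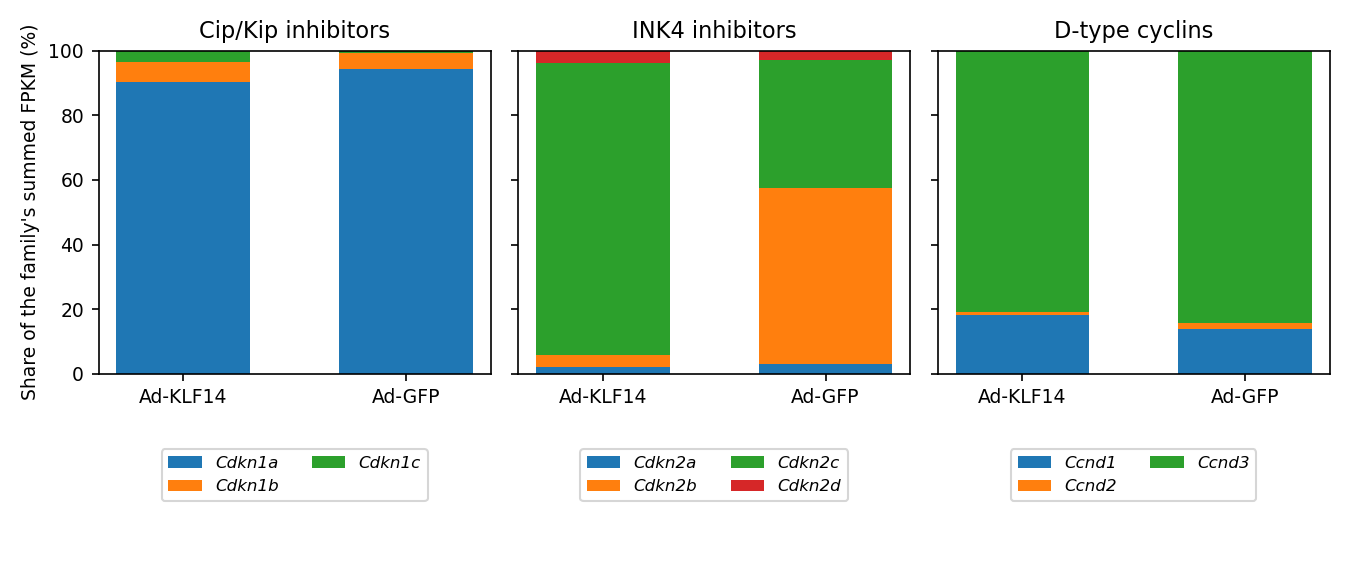
Share of each gene in the summed FPKM of its family in percent, Ad-KLF14 left of Ad-GFP, 1 library each and without error bars. In the INK4 panel the Cdkn2c part is 90.5% with Ad-KLF14 and 39.6% with Ad-GFP, while Cdkn1a and Ccnd3 lead their families in both libraries.

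The promoters of this pair of INK4 genes are shown because they went in opposite directions and because KLF and SP factors bind GC-rich DNA of the GC box and CACCC box type. The sequences are RefSeq's, from build GRCm38.p6, and cover the 250 bases before an annotated start. All 3 lie on the minus strand and read 5′ to 3′ toward the gene. Capitals mark the GC box, searched as GGGCGG on both strands. They also mark the KLF and SP box, searched as CACCC on both strands. For Cdkn2c both annotated starts are given.
Cdkn2b, chr4:89311033-89311282: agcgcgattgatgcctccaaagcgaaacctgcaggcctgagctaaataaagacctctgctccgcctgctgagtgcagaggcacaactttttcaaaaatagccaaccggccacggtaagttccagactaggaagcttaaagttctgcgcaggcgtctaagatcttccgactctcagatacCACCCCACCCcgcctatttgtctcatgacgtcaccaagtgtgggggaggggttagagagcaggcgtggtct
Cdkn2c, first start, chr4:109666757-109667006: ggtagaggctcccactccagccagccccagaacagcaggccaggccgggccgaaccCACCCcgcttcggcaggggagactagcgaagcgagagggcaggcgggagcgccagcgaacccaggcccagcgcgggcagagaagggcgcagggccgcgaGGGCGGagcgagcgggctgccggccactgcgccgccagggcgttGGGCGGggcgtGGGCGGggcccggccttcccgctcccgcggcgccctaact
Cdkn2c, second start, chr4:109665373-109665622: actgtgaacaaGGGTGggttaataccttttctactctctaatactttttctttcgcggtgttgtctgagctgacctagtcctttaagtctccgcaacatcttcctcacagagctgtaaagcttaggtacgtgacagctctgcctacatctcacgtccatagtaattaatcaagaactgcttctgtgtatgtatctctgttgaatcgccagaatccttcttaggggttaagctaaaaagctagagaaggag

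The first Cdkn2c window is GC-rich (77.2% G or C, against a median of 52.4% over 32536 distinct promoter windows) and holds 3 GC boxes, whose first bases lie at −95, −51 and −40 from the start. At least 1 GC box was found in 33.0% of all windows and at least 3 in 8.54%. The Cdkn2b window (53.6% G or C) holds no GC box before the start and 1 when the 50 bases after it are included. It holds 2 CACCC boxes, at −71 and −66, and 21.2% of all windows hold at least 2. Each Cdkn2c window holds 1 CACCC box, and 52.1% of all windows hold at least 1. The looser KLF consensus CCNCNCCC, read on both strands, matched 3 times in the Cdkn2b window and 4 times in the first Cdkn2c window, partly over the boxes above, and was absent from the second. It was present in 46.2% of all windows, at least 3 times in 16.8% and at least 4 times in 10.8%. The E2F motif TTTNNCGC, found in 4.31% of all windows, was in none of the 3 and occurred once at each of the 2 starts of Cdkn2a. GC boxes also occurred before starts of genes under 2-fold, with 3 for Cdkn2d and 1 for Cdkn1b. The 2 starts of Ccnd3 had 2 and 1, and those of Cdkn1a had 0 and 2. Cdkn2a, left out of the comparison, had 2 and 0. The starts of Ccnd3 also had 3 and 2 CACCC boxes. Whether boxes go with the direction of a gene was not tested. All these matches describe the letters and show neither binding nor a cause. RefSeq promoter entries matched 7 of the 10 genes, and the promoters of Cdkn1c, Ccnd1 and Ccnd2 were not analysed here.

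Among the D-type cyclins, Ccnd3 was the most abundant, at 69.4 FPKM with Ad-KLF14 and 49.8 FPKM with Ad-GFP from 1639 and 1193 reads. The ratio was 1.39 (interval 1.29 to 1.5). A processed copy, Ccnd3-ps, was listed at 0 with Ad-KLF14 and 0.0459 FPKM with Ad-GFP. Ccnd1, the cyclin D of hepatocytes that leave rest, was at 15.5 FPKM with Ad-KLF14 and 8.16 FPKM with Ad-GFP, from about 657 and 350 reads. These are the recovered pair divided by 2 and rounded down. The ratio of 1.90 for Ccnd1 had an interval of 1.67 to 2.17, which reaches past 2-fold. It rests on the divided reads and may be too wide.

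Ccnd2 was at 0.979 FPKM with Ad-KLF14 and 1.18 FPKM with Ad-GFP from 63 and 77 reads, and its ratio of 0.830 (interval 0.585 to 1.17) was not distinguishable from 1 at this depth. The 3 cyclins summed to 85.9 FPKM with Ad-KLF14 and 59.1 FPKM with Ad-GFP, a ratio of 1.45. Ccnd3 held 80.8% of that sum with Ad-KLF14 and 84.2% with Ad-GFP, and Ccnd1 held 18.1% and 13.8%. Set against the inhibitors per length, the D-type cyclins stood at 1.78 times the INK4 sum with Ad-KLF14 and 2.15 times with Ad-GFP. They stood at 0.195 times the Cip/Kip sum with Ad-KLF14 and 0.118 times with Ad-GFP.

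**Figure D3:**
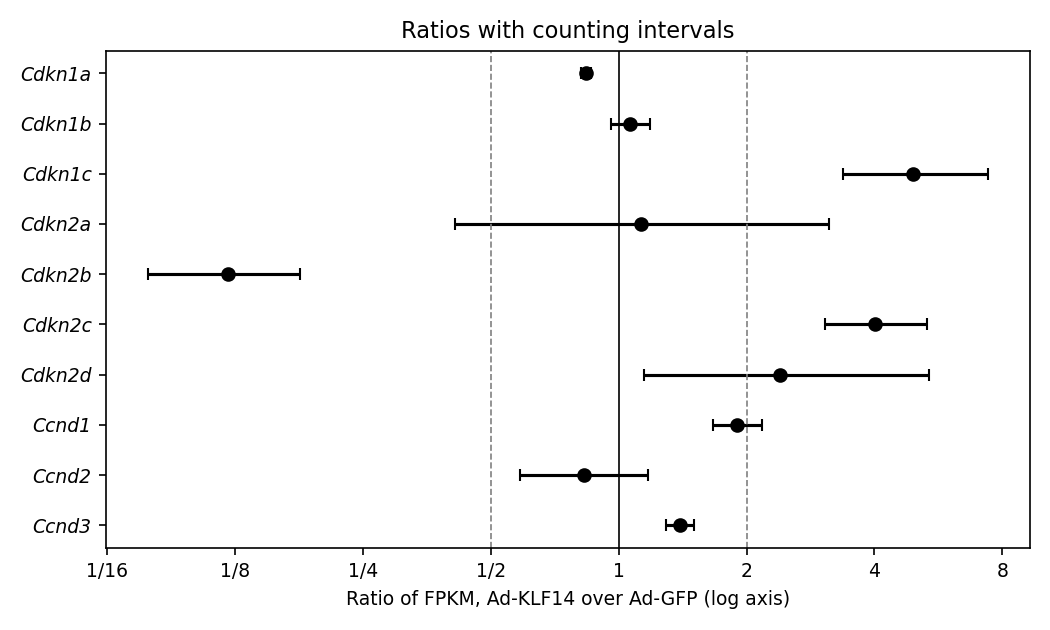
Ratio of FPKM, Ad-KLF14 over Ad-GFP, on a log axis; bars are 95% Clopper-Pearson counting intervals and dashed lines mark 2-fold in each direction. The intervals of Cdkn1c and Cdkn2c lie wholly above 2-fold, that of Cdkn2b wholly below, and those of Cdkn1b, Cdkn2a and Ccnd2 hold 1.

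In order of level the Ad-KLF14 library ran from Cdkn1a through Ccnd3, Cdkn2c, Cdkn1b, Ccnd1, Cdkn1c, Cdkn2d, Cdkn2b and Ccnd2 to Cdkn2a. The intervals of Ccnd1 and Cdkn1c overlapped, as did those of each neighbouring pair from Cdkn2d down. The Ad-GFP library ran from Cdkn1a through Ccnd3, Cdkn1b, Cdkn2b, Cdkn2c, Ccnd1, Cdkn1c, Ccnd2 and Cdkn2a to Cdkn2d. There Cdkn2b overlapped with Cdkn2c, Cdkn2c with Ccnd1, and each neighbouring pair from Ccnd2 down. The overlaps of Cdkn2c are uncertain, since its interval rests on a lower limit of reads and may be too wide. The order of Cdkn1a and Ccnd3 was the same in both libraries, while Cdkn2c ranked 3 with Ad-KLF14 and 5 with Ad-GFP, and Cdkn2b ranked 8 and 4.

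Likeness between genes over only 2 libraries means a similar pair of levels and nothing more. By distance on log2(FPKM + 1), the gene models Gm6907 (distance 0.10) and LOC100504104 (0.11) lay nearest to Cdkn1c. The transcript 9630033F20Rik (0.10) and the autophagy gene Atg9a (0.14) lay nearest to Cdkn2c. The phosphoinositide kinase gene Pip4k2b (0.15) and 1110065P20Rik (0.19) lay nearest to Cdkn2b.

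The kinases that these proteins bind were under 2-fold apart. Cdk4 was at 89.9 FPKM with Ad-KLF14 and 128 FPKM with Ad-GFP (ratio 0.700, interval 0.619 to 0.791), and Cdk6 at 9.80 FPKM with Ad-KLF14 and 7.44 FPKM with Ad-GFP (ratio 1.32, interval 1.01 to 1.72). Cdk2, the main kinase that p21, p27 and p57 block, was at 26.6 FPKM with Ad-KLF14 and 43.5 FPKM with Ad-GFP, a ratio of 0.612. Cdk4 and Cdk6 were named after their values were seen. Over all 12419 genes, 6.37% were at least 2-fold higher and 8.99% lower. These shares stand beside the list counts here and below, from which nothing is read. Of 16 measured genes in the list of CDK partners and other cyclins, 1 was at least 2-fold higher and 0 lower, and the median log2 ratio was 0.24. The higher one was Ccna2, the S-phase cyclin, at 28.0 FPKM with Ad-KLF14 and 11.7 FPKM with Ad-GFP. Ccne2, a partner of CDK2, was at 83.1 FPKM with Ad-KLF14 and 45.8 FPKM with Ad-GFP, and the mitotic phosphatase gene Cdc25c at 1.66 FPKM with Ad-KLF14 and 0.501 FPKM with Ad-GFP.

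Downstream, the RB and E2F proteins had 6 of 18 genes at least 2-fold higher and 1 lower, with a median log2 ratio of 0.62. The shares over all 12419 genes were 6.37% and 8.99%, and nothing particular to the list is read from its counts. E2f2 was 10.7-fold higher and E2f8, a repressor of the family, 3.39-fold higher. Lin52, a subunit of the MuvB complex, was at 19.8 FPKM with Ad-KLF14 and 4.25 FPKM with Ad-GFP and its partner gene Mybl2 at 18.7 FPKM with Ad-KLF14 and 6.28 FPKM with Ad-GFP. Of the RB relatives, named after their values were seen, Rb1 was at 12.5 FPKM with Ad-KLF14 and 9.65 FPKM with Ad-GFP, Rbl2 (p130) at 10.8 FPKM with Ad-KLF14 and 4.29 FPKM with Ad-GFP, and Rbl1 (p107) at 7.18 FPKM with Ad-KLF14 and 20.1 FPKM with Ad-GFP.

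The E2F targets of DNA replication had 20 of 22 genes with a log2 ratio above 0, against 48.3% of the 12419 genes, and nothing particular to the list is read from this. In it 6 genes were at least 2-fold higher and 1 lower, against 6.37% and 8.99% of all 12419 genes. The median log2 ratio of the list was 0.59. Cdc6, Rrm2 and Tk1 had log2 ratios of 1.32, 1.23 and −2.25. The 13 proliferation markers were mixed, with 2 at least 2-fold higher (Mki67 and Aurka), 0 lower, 8 above 0 and a median of 0.20. Foxm1, a driver of mitotic genes, was at 1.95 FPKM with Ad-KLF14 and 3.99 FPKM with Ad-GFP.

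**Figure D4:**
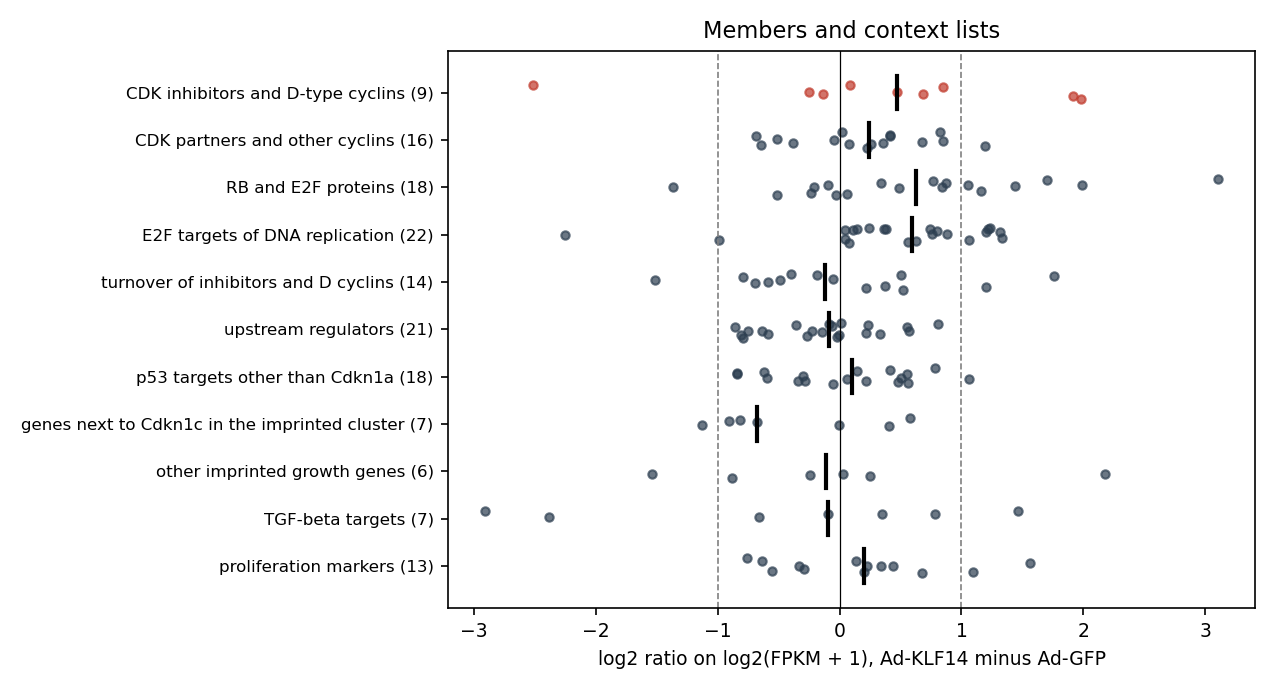
Log2 ratios on log2(FPKM + 1), Ad-KLF14 minus Ad-GFP, for the 9 compared genes in red and for the genes of each context list in dark blue, with the number of genes in brackets; black bars are medians and dashed lines mark 2-fold. The RB and E2F list (median 0.62) and the E2F targets (0.59) have the highest medians.

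These proteins are controlled by destruction as well as by transcription. Skp2, the F-box protein that marks p27 for the proteasome, was at 14.9 FPKM with Ad-KLF14 and 5.92 FPKM with Ad-GFP (2.52-fold, interval 2.24 to 2.83). Its cofactor gene Cks1b, which p27 recognition needs, was at 11.7 FPKM with Ad-KLF14 and 35.4 FPKM with Ad-GFP (ratio 0.331, interval 0.261 to 0.417). The scaffold gene Cul1 of the same ligase was at 41.4 FPKM with Ad-KLF14 and 72.2 FPKM with Ad-GFP. Usp2, whose human counterpart removes ubiquitin from cyclin D1, was at 3.94 FPKM with Ad-KLF14 and 0.457 FPKM with Ad-GFP from 170 and 20 reads. Of the 14 genes of that list 2 were at least 2-fold higher and 1 lower, with a median of −0.12. Protein levels were not measured.

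Upstream, none of 21 measured regulators was 2-fold apart, and their median was −0.08. Among them the p53 gene Trp53 was at 125.3 FPKM with Ad-KLF14 and 124.4 FPKM with Ad-GFP, Myc, which represses Cdkn2b and Cdkn1a, at 75.7 FPKM with Ad-KLF14 and 114 FPKM with Ad-GFP, and Foxo1, which activates Cdkn1b, at 16.9 FPKM with Ad-KLF14 and 9.22 FPKM with Ad-GFP. Smad2 and Smad3, which carry the TGF-beta signal to Cdkn2b, were at 21.0 and 16.3 FPKM with Ad-KLF14 and 37.6 and 28.1 FPKM with Ad-GFP. Id1 and the kinase gene Gsk3b had ratios of 0.568 and 0.511. Trp53, Myc and Smad3 were named after their values were seen.

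The p53 targets other than Cdkn1a had 1 of 18 genes at least 2-fold higher, Pmaip1 at 36.4 FPKM with Ad-KLF14 and 16.9 FPKM with Ad-GFP, 0 lower, and a median of 0.10. Plk2 and Gadd45a had ratios of 0.555 and 0.555, and Trp53inp1 of 1.73. Among 7 measured TGF-beta targets, 2 were at least 2-fold lower and 1 higher. Ctgf was at 12.5 FPKM with Ad-KLF14 and 100.3 FPKM with Ad-GFP. Bambi, a decoy receptor of the same pathway, was at 5.82 FPKM with Ad-KLF14 and 1.47 FPKM with Ad-GFP, and the median of the list was −0.09. Spp1 and Cldn4, in the cholangiocyte list, were 3.57-fold and 2.63-fold lower in the same library as Cdkn2b, and their part in it was not tested.

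Genes around the inhibitors on the chromosome were set beside them. Of 13 genes of the imprinted cluster that holds Cdkn1c, 7 were measured, 0 were at least 2-fold higher and 1 lower, and the median log2 ratio was −0.68. Phlda2, also expressed from the maternal chromosome, was at 1.46 FPKM with Ad-KLF14 and 3.60 FPKM with Ad-GFP, and Tnfrsf23 at 19.7 FPKM with Ad-KLF14 and 44.2 FPKM with Ad-GFP. Cd81 was at 213 FPKM with Ad-KLF14 and 377 FPKM with Ad-GFP and Nap1l4 at 41.7 FPKM with Ad-KLF14 and 67.4 FPKM with Ad-GFP. Kcnq1ot1, the long RNA from the paternal chromosome that silences Cdkn1c there and named after its values were seen, was at 0.205 FPKM with Ad-KLF14 and 0.117 FPKM with Ad-GFP, from 191 and 110 reads. H19 and Igf2, also named after their values were seen, were under 1 FPKM in both libraries and so not among the 7. Igf2 was at 0.711 FPKM with Ad-KLF14 and 0.153 FPKM with Ad-GFP from 32 and 7 reads. Its ratio was 4.64 (interval 2.01 to 12.4).

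Among other imprinted growth genes, 1 of 6 measured was at least 2-fold higher and 1 lower. Peg3 was at 4.51 FPKM with Ad-KLF14 and 0.220 FPKM with Ad-GFP from 222 and 11 reads, while Gnas was at 88.9 FPKM with Ad-KLF14 and 259 FPKM with Ad-GFP. Grb10 was at 9.62 FPKM with Ad-KLF14 and 18.5 FPKM with Ad-GFP and Igf2r at 27.9 FPKM with Ad-KLF14 and 23.3 FPKM with Ad-GFP. Of 4 listed genes next to Cdkn2a and Cdkn2b only Mtap averaged 1 FPKM or more. It was at 62.8 FPKM with Ad-KLF14 and 70.7 FPKM with Ad-GFP, a ratio of 0.888 (interval 0.833 to 0.947). Ifna4, Ifnb1 and Dmrta1 were below that mean. Dmrta1, named after its values were seen, was at 0.506 FPKM with Ad-KLF14 and 0.109 FPKM with Ad-GFP from 23 and 5 reads. Its ratio was 4.67 (interval 1.74 to 15.7). Near Cdkn2c, Faf1 was at 33.9 FPKM with Ad-KLF14 and 33.1 FPKM with Ad-GFP (ratio 1.03, interval 0.959 to 1.1) and Rnf11 at 46.1 FPKM with Ad-KLF14 and 121 FPKM with Ad-GFP.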

How the data were processed

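The authors deposited 1 table of FPKM values per library, with 1 value for each of 35129 gene symbols. Bowtie 0.12.2 and the mm8 build were used, per the submitters' processing notes; the gene models, the counting rule and how multiply matching reads were counted are not given in the sources used here. The series' design text also speaks of retinal profiles in triplicate, and whether a table pools cultures is not stated. Gapdh, which has many processed copies in the mouse genome, was listed at 3.06 FPKM with Ad-KLF14 and 3.09 FPKM with Ad-GFP, and whether such copies affect the genes described was not tested.

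The 12419 genes that averaged 1 FPKM or more were kept, log2 ratios were taken on log2(FPKM + 1), and a gene was counted as apart from 2-fold on. Ratios named without log2 are ratios of the FPKM values without pseudocount. Whole reads were recovered from the FPKM steps. Candidate totals were whole multiples of 1239079 and 1256816 reads, and of 30 factors tried 9 was taken. With it the implied lengths of 26.1% of 1337 genes with 1 annotated transcript lay within 3% of that transcript, against 4.11% for the next best factor. The reads of a gene are the smallest whole pair that also gives a whole gene length, and lower limits where the true length is a multiple. For Cdkn2c the implied length was 553 bases, against an annotated transcript of 1106 bases and others of up to 2471 bases. For Cdkn1c it was 971 bases, of which neither the nearest annotated length of 667 nor the longest of 1901 bases is a multiple. Its reads are therefore given as lower limits only as a precaution. Reads may be lower limits for other genes too, such as Cdk4 (implied 449 bases, annotated up to 2053) and Cdk6 (implied 1235, annotated up to 11525). Intervals from lower limits of reads may be too wide. For Ccnd1 the pair was divided by 2 and rounded down, since the implied length exceeded the annotated one. Its reads are thus approximate, and its intervals would be narrower on the undivided pair. Intervals are 95% Clopper-Pearson for ratios and Poisson for levels (scipy 1.17.1, pandas 2.3.3). The steps were tested on simulated data.

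All 10 genes are described, with up to 4 genes of each context list by largest log2 ratio and the 2 genes nearest to Cdkn1c, Cdkn2c and Cdkn2b; 2 of the context genes so named are not reported here, and other names are said to be chosen after their values were seen or serve as checks. The genes and lists were chosen with earlier results of these data known.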

Additional observations from a re-analysis of the deposited data

How the results depend on the processing

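No paired analysis was possible because each group has 1 library, and no library could be left out. Cdkn1c and Cdkn2c were at least 2-fold higher and Cdkn2b at least 2-fold lower under pseudocounts of 0.1 and 5 FPKM, no filter, a mean of at least 5 FPKM, scaling to a sum of 1000000 with or without Klf14 or to the upper quartile, and centring on the median. A pseudocount of 0.1 FPKM added Cdkn2d to the higher genes (3 in all), and a limit of 1.5-fold added Cdkn2d and Ccnd1 (4 in all). Over all genes, 791 were higher and 1117 lower; a pseudocount of 5 FPKM gave 295 and 467, and 1.5-fold gave 2079 and 2598. Scaling to a sum of 1000000 without Klf14 gave 1148 and 1118, so the higher genes made up 50.7% of those apart, against 41.5% as reported. The log2 ratio kept its sign for each of the 10 genes under the 6 alternatives of scale and pseudocount, and 5 of 60 values shifted by more, on the log2 scale, than the distance between the FPKM ratio and the bound of its counting interval on that side. With 5 FPKM, Cdkn1c was at 1.30 and Cdkn2b at −1.55. Depth limits Cdkn2a, Ccnd2 and Cdkn2d, whose values rest on few reads or low levels.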

Other observations

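Outside the D-type cyclins and the inhibitors, 49 of 56 other genes whose symbols name cyclins, cyclin-dependent kinases or their binding proteins had a mean of at least 1 FPKM. Past 2-fold, 5 of them (10.2%) were higher in Ad-KLF14 cells and 1 (2.04%) was lower, against 6.37% and 8.99% of all compared genes, and the median log2 ratio was 0.09. The higher genes were Ccna2, Ccno, Ccnf, Ccnk and Ccnt1. Ccnf, which encodes an F-box protein of a ubiquitin ligase, was at 74.0 FPKM with Ad-KLF14 and 23.4 FPKM with Ad-GFP (ratio 3.17, interval 2.93 to 3.43). Ccnk, the partner of CDK12 and CDK13, which phosphorylate RNA polymerase II, was at 64.6 FPKM with Ad-KLF14 and 23.8 FPKM with Ad-GFP. Ccnt1, the partner of CDK9 in the elongation factor P-TEFb, was at 41.7 FPKM with Ad-KLF14 and 17.9 FPKM with Ad-GFP. Of their kinases, Cdk12 was at 15.6 FPKM with Ad-KLF14 and 10.7 FPKM with Ad-GFP, Cdk13 at 18.8 FPKM with Ad-KLF14 and 18.5 FPKM with Ad-GFP and Cdk9 at 19.1 FPKM with Ad-KLF14 and 28.9 FPKM with Ad-GFP. The lower gene was Cdk10, at 3.59 FPKM with Ad-KLF14 and 8.69 FPKM with Ad-GFP. This set was put together after values had been seen.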
